A study of Mus musculus with 11 samples.

Results

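The 39 genes described here encode sarcomere proteins, Z-disc and intercalated disc proteins, calcium handling proteins of the sarcoplasmic reticulum, and muscle enzymes and myoglobin. They were chosen by symbol as a measure of cardiac muscle in dissected mouse aortic valves, and all 39 were found among the 46983 genes of the deposited counts. By role they comprised 8 thin filament genes, 5 thick filament, titin and M-band genes, 16 Z-disc, intermediate filament and intercalated disc genes, 2 stress-responsive genes, 5 calcium handling genes, and 3 genes of energy transfer and oxygen storage.

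Whole aortic valves of wild type mice were collected 48 h after surgery, and RNA of 1 mouse went into each of 11 libraries. The groups were aging injured valves from mice of 16 to 18 months (n = 2), aging sham valves of the same age (n = 3), young injured valves from mice of 3 to 4 months (n = 3), and young sham valves of that younger age (n = 3). Injury was made with a wire that damaged the valve endothelium in the living animal, and the sham operation was its control. No transgene or deletion is named for any group, and the labels do not say how much of the neighbouring aortic root or myocardium was taken with the valve. RNA of all cell types of the tissue was measured together.

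In the sarcomere, thin filaments of actin slide along thick filaments of myosin, with tropomyosin and the troponins making the contact depend on calcium. Z-discs anchor the thin filaments, titin spans from the Z-disc to the M-band, and intercalated discs join the ends of neighbouring cardiomyocytes. At each beat the ryanodine receptor releases calcium from the sarcoplasmic reticulum and the calcium pump Atp2a2 takes it back, held in check by phospholamban. Aortic valve leaflets consist mainly of interstitial and endothelial cells, while the root to which they attach borders on the ventricular myocardium.

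The promoters of these genes were searched for binding motifs of muscle transcription factors. RefSeq windows of GRCm38.p6, running from 250 bases before to 50 bases after the transcription start, were at hand for 34 of the 39 genes. On either strand, the CArG box, the motif of serum response factor, was found for 6 of 34 members (Acta1, Actc1, Fhl2, Ldb3, Myom1 and Nebl), against 1.81% of the 27025 genes with a window. The MEF2 box, the motif of myocyte enhancer factor 2, was found for 5 of 34 members (Mybpc3, Myoz2, Synpo2l, Ttn and Xirp2), against 0.636% of those genes. The motif CATTCC, known as the M-CAT element of TEAD factors, was found on either strand for 11 of 34 members, against 16.6% of genes. The 11 were Acta1, Ankrd1, Flnc, Myh6, Mypn, Nebl, Tnnc1, Tnnt2, Tpm1, Trim63 and Ttn. A match describes letters in a window and not a bound site.

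The 120 bases before the start are shown for 4 members with a CArG box, so that the motif and its position can be compared, with the motif in capitals. Both sarcomeric actins are among them. Their positions are chr8:123894776-123894895 for Acta1 (minus strand), chr2:114052876-114052995 for Actc1 (minus strand), chr14:34588608-34588727 for Ldb3 (minus strand) and chr17:71019437-71019556 for Myom1 (plus strand), all in GRCm38.p6.
Acta1: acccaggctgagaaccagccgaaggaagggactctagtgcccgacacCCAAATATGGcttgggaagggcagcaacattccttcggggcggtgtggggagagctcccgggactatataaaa
Actc1: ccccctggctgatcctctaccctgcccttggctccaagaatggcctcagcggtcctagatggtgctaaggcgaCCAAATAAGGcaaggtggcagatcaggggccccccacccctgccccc
Ldb3: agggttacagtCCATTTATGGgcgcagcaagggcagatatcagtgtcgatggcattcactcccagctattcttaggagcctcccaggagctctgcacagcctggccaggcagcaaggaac
Myom1: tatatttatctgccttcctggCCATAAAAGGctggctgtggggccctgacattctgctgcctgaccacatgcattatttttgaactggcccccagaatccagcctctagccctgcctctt
The first base of the capitals lay at -73 from the start in Acta1, at -47 in Actc1, at -109 in Ldb3 and at -99 in Myom1. Ldb3 also had a window for another start, from which the same box lay at -35.

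The same stretch is shown for 4 members with a MEF2 box, again with the motif in capitals. Their positions are chr2:91118024-91118143 for Mybpc3 (plus strand), chr3:123034988-123035107 for Myoz2 (minus strand), chr14:20668355-20668474 for Synpo2l (minus strand) and chr2:67445882-67446001 for Xirp2 (plus strand).
Mybpc3: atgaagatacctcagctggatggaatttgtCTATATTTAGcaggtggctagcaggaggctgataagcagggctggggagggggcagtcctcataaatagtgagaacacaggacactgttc
Myoz2: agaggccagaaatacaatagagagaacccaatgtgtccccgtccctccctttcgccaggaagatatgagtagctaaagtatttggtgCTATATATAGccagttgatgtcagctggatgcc
Synpo2l: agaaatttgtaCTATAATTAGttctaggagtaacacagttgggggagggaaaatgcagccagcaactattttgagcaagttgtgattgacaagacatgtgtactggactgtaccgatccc
Xirp2: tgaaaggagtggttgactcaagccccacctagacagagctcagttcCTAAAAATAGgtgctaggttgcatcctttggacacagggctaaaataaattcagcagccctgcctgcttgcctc
The capitals began at -90 in Mybpc3, -33 in Myoz2, -109 in Synpo2l and -74 in Xirp2. Mybpc3 codes for cardiac myosin binding protein C, Myoz2 for calsarcin-1 of the Z-disc, and Synpo2l and Xirp2 for actin-associated proteins of the Z-disc and the intercalated disc.

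Library totals ranged from 27124000 to 36353474 counts. Levels are given as CPM, counts scaled to the size of the library, with TMM, the trimmed-mean method of edgeR, applied to the library sizes. A gene is said to have risen or fallen only at an adjusted p under 0.1 together with a fold change over 2, by edgeR's quasi-likelihood test over 19366 genes. Mitochondrial genes took 11.1% of the counts in young injured 3 and 8.90% to 13.8% in young sham libraries, against 5.10% to 8.99% in the other 7 libraries. Genes with at least 1 count numbered 18642 in aging injured 1, 19015 in aging injured 2 and 18641 in young sham 1, and between 20411 and 22533 elsewhere.

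RNA of the cardiac muscle genes was present in every valve. Its summed level ranged widely between mice of the same group, except in aging injured valves. The 39 genes together held 24560 and 21346 CPM in aging injured valves, 36772, 15429 and 17918 CPM in aging sham valves, 15558, 15452 and 58553 CPM in young injured valves, and 34572, 45806 and 58072 CPM in young sham valves. Young injured 3 stood at the level of the highest young sham valve, while young injured 1 and 2 stood with aging sham 2 at the bottom. The highest library exceeded the lowest 3.79-fold over all 11 libraries. As a share of all counts the genes took 5.62% in young injured 3 (exact binomial 95% interval 5.61% to 5.62%) and 1.62% in aging sham 2 (1.62% to 1.63%). Tpm1, which is also made by smooth muscle and fibroblasts, took 6.91% of the counts of the 39 genes in young sham 3 and 12.9% in aging sham 2. The sum is therefore not a measure of cardiac muscle alone. In bulk tissue, fewer cardiomyocytes and less RNA per cardiomyocyte cannot be told apart.

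**Figure D1:**
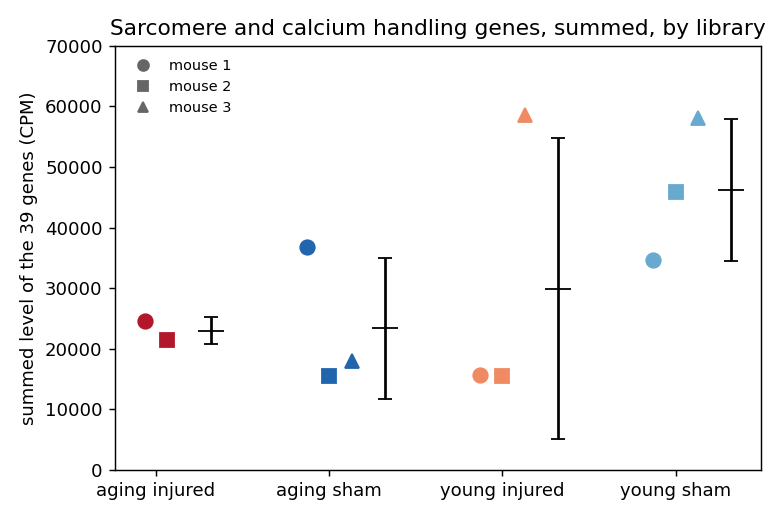
Summed level of the 39 genes in each library, in CPM on the vertical axis, with a symbol for each mouse and, beside it, the group mean with its SD as a bar. Young injured 1 and 2 lie at 15558 and 15452 CPM and young injured 3 at 58553 CPM, while the 3 young sham valves lie between 34572 and 58072 CPM.

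Group means of the summed level were 22953 ± 2273 CPM in aging injured valves (SD, n = 2), 23373 ± 11671 CPM in aging sham valves (SD, n = 3), 29855 ± 24854 CPM in young injured valves (SD, n = 3) and 46150 ± 11754 CPM in young sham valves (SD, n = 3). The highest library of a group was shared by most genes in all 4 groups, least so in aging injured valves, and the lowest was divided in young injured valves. Young injured 3 was the highest young injured library for 39 of 39 genes, and aging sham 1 was the highest aging sham library for 39 of 39. In young sham valves, young sham 3 was the highest for 36 genes. The lowest young injured library was young injured 1 for 22 genes and young injured 2 for 17. The lowest aging sham library was aging sham 2 for 34 genes, and the lowest young sham library was young sham 1 for 31. Over all 11 libraries the highest was young sham 3 for 20 genes, young injured 3 for 17 and young sham 2 for 2. In aging injured valves the order was mixed, with aging injured 1 the higher for 27 genes and aging injured 2 for 12.

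**Figure D2:**
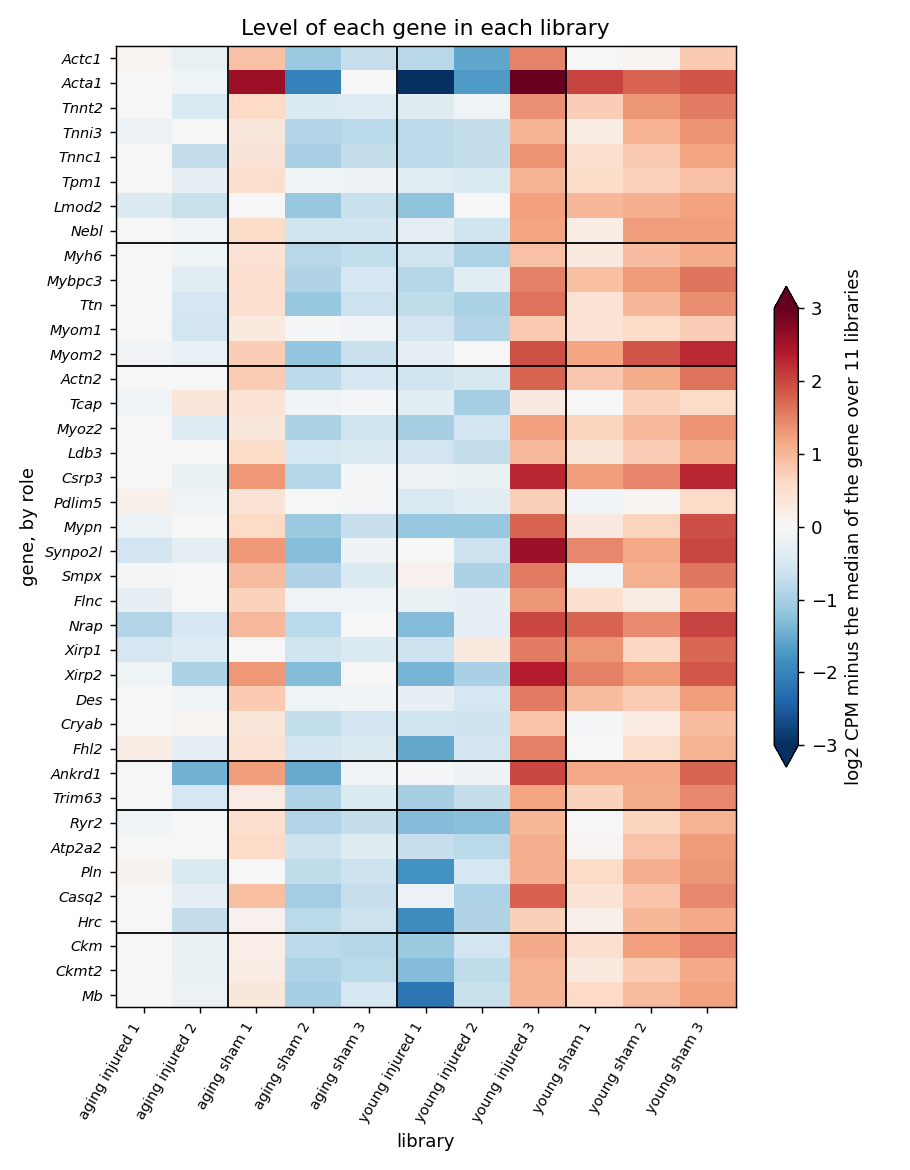
Log2 CPM of each of the 39 genes minus the median of that gene over the 11 libraries, with genes in role order down the page, libraries in columns by group, red above and blue below the median. The columns of young injured 3 and young sham 3 are red over all genes, and Acta1 runs past the ends of the colour scale in young injured 1 and young injured 3.

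Markers of other muscle and cell types were also summed. The 20 cardiomyocyte markers outside the 39 genes summed to 4501 to 4808 CPM in aging injured, 2764 to 8512 CPM in aging sham, 3803 to 16379 CPM in young injured and 8319 to 15715 CPM in young sham valves. The 12 fast skeletal muscle markers summed to at most 107 CPM in any library, and of these Casq1, at 11.8 to 90.2 CPM, held most. Smooth muscle markers summed to 20646 to 23519 CPM in aging injured, 23732 to 28705 CPM in aging sham, 6963 to 17099 CPM in young injured and 8834 to 21526 CPM in young sham valves. Valve interstitial and fibroblast markers summed to 19518 to 23725 CPM in aging injured, 16997 to 20266 CPM in aging sham, 25981 to 32912 CPM in young injured and 19380 to 22749 CPM in young sham valves. Endothelial markers summed to 1192 to 1219 CPM in aging injured, 871 to 1521 CPM in aging sham, 559 to 1265 CPM in young injured and 913 to 1389 CPM in young sham valves. Adipocyte markers summed to 204 to 616 CPM in aging injured, 77.0 to 167 CPM in aging sham, 58.3 to 312 CPM in young injured and 135 to 289 CPM in young sham valves. Mesothelial markers summed to 93.7 to 105 CPM in aging injured, 150.2 to 287 CPM in aging sham, 44.5 to 155 CPM in young injured and 30.9 to 89.6 CPM in young sham valves. Macrophage markers summed to 1038 to 1055 CPM in aging injured, 675 to 939 CPM in aging sham, 646 to 1083 CPM in young injured and 601 to 802 CPM in young sham valves. Of these lists the cardiomyocyte markers were also used as a covariate, with the values given beside the comparisons, and the part of the other cell types in the results was not tested.

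Per length, as deposited RPKM, the genes with the highest median over the 11 libraries were Actc1 at 1266, Mb at 1115, Myh6 at 953 and Atp2a2 at 468 RPKM. The lowest medians were those of Ttn at 9.23, Mypn at 7.96 and Nebl at 6.13 RPKM. By counts, Myh6, Atp2a2, Tpm1, Actc1 and Tnnt2 together took 48.0% to 57.8% of the reads of the 39 genes in each library.

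Among thin filament genes, Actc1 encodes the cardiac form of sarcomeric actin and Acta1 the form typical of skeletal muscle, and their levels are shown together. Actc1 stood at 2031 and 1649.8 CPM in aging injured valves, 3528, 887 and 1182 CPM in aging sham valves, 1081, 652 and 5384 CPM in young injured valves, and between 1920.3 CPM (young sham 1) and 3330.5 CPM (young sham 3) in young sham valves. Young injured 3 and aging sham 1 were the highest libraries for this gene, and all groups overlapped. Acta1 stood at 87.5 and 80.4 in aging injured, 518, 21.6 and 86.4 in aging sham, 5.64, 27.0 and 843 in young injured valves and 358, 294 and 325 in young sham valves, in CPM. Young injured 3 held 149-fold more Acta1 than young injured 1, the widest range of any member over the libraries of a group.

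Taking the actin pair together, Acta1 made up 4.13% and 4.65% of their counts in aging injured valves, 12.8%, 2.37% and 6.81% in aging sham valves, 0.519%, 3.98% and 13.5% in young injured valves, and 15.7%, 12.7% and 8.90% in young sham valves. The exact binomial 95% interval was 0.451% to 0.594% in young injured 1, 3.74% to 4.24% in young injured 2 and 13.4% to 13.7% in young injured 3, for counting error only. No stretch of 150 bases, the length of a read, was shared exactly between the transcripts of the actin pair in the GENCODE annotation. The share was high in all young sham valves and in the highest library of the young injured and aging sham groups.

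**Figure D3:**
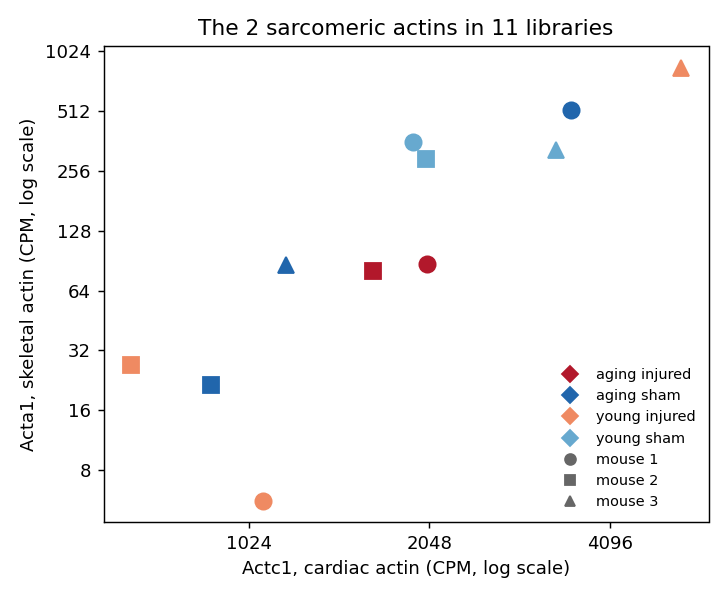
Level of Acta1 (vertical axis) against Actc1 (horizontal axis) in each library, both in CPM on log axes, with colours for groups and symbols for mice. Acta1 ranges from 5.64 to 843 CPM and Actc1 from 652 to 5384 CPM, both at their highest in young injured 3.

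Tnnt2, the cardiac troponin T that links the troponin complex to tropomyosin, stood at 1292 and 943 CPM in aging injured valves, 1946, 974 and 983 CPM in aging sham valves, 1007, 1188 and 3337 CPM in young injured valves, and 2169, 3220.4 and 3765 CPM in young sham valves. Its aging sham values lay wholly below the young sham values, and the injured groups overlapped with every group they were set against. Tnni3, the inhibitory cardiac troponin I, ranged from 257 CPM in aging sham 2 to 1198 CPM in young sham 3. Tnnc1, the calcium-binding troponin C of slow and cardiac muscle, ranged from 167 CPM in aging sham 2 to 824 CPM in young injured 3. Tpm1, tropomyosin 1, had a narrow spread, from 1655 CPM in young injured 2 to 4394 CPM in young injured 3, and is also made by smooth muscle and fibroblasts. Lmod2, a leiomodin that lengthens thin filaments, stood at 119 and 100.4 in aging injured, 159, 71.6 and 100.4 in aging sham, 69.2, 159.7 and 370.0 in young injured valves and 314, 336 and 368 in young sham valves, in CPM. The 3 aging sham values of Lmod2 were all below the 3 young sham values, and young injured 2 lay apart from young injured 1, at 159.7 against 69.2 CPM. Nebl, nebulette of the Z-disc, ranged from 54.7 CPM in aging sham 2 to 199.5 CPM in young sham 2.

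Thick filament and M-band genes build and crosslink the myosin filament. Myh6, the alpha myosin heavy chain that is the main cardiac myosin of the adult mouse, stood at 5400.1 and 4968 CPM in aging injured valves, 7328, 3017 and 3238 CPM in aging sham valves, 3571, 2864 and 9903 CPM in young injured valves, and 6596, 10329 and 11672 CPM in young sham valves. It was highest in young sham 3 and lowest in young injured 2, and the aging sham range reached into the young sham range through aging sham 1. Of its 150-base windows, 4.78% occurred exactly in another transcript, that of Myh7. Ttn, which encodes titin, stood at 963 and 680.3 in aging injured, 1365, 440.1 and 612 in aging sham, 567, 495 and 2977 in young injured valves and 1303, 1921 and 2522 in young sham valves, in CPM. Young injured 3 was the highest library for Ttn, and aging sham 1 alone of the aging sham valves lay inside the young sham range. Mybpc3 ranged from 359 CPM in aging sham 2 to 2042 CPM in young sham 3. Myom1, myomesin 1, which crosslinks myosin at the M-band, ranged from 385 CPM in young injured 2 to 1225 CPM in young injured 3. Myom2, myomesin 2, stood at 221 and 203 in aging injured, 397, 106 and 149 in aging sham, 194, 238 and 889 in young injured valves and 538, 880.4 and 1116 in young sham valves, in CPM, with all aging sham values below all young sham values.

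At the Z-disc, Actn2, the alpha-actinin that crosslinks thin filaments, stood at 435 and 436 CPM in aging injured valves, 743, 252 and 310.0 CPM in aging sham valves, 288, 311 and 1459 CPM in young injured valves, and 766, 939.8 and 1348 CPM in young sham valves. The aging injured values were alike and lay inside the aging sham range. The aging sham values lay below the young sham values, with only aging sham 1 close to them. Des, desmin, the intermediate filament that ties neighbouring Z-discs, stood at 551 and 503 in aging injured, 948, 503 and 517 in aging sham, 462, 379.9 and 1622 in young injured valves and 1072, 936 and 1312 in young sham valves, in CPM. Young injured 3 again lay above every young sham valve and young injured 1 and 2 lay below all of them. Cryab, alphaB-crystallin, a small chaperone that protects desmin and titin, stood at 425 and 453 CPM in aging injured valves, 544, 254 and 287 CPM in aging sham valves, 280.0, 274 and 771 CPM in young injured valves, and 413, 507 and 805 CPM in young sham valves. Its groups overlapped in every comparison.

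The other Z-disc genes were described by range. Tcap, telethonin, which caps titin at the Z-disc, ranged from 185 CPM in young injured 2 to 603 CPM in young sham 2. Myoz2 ranged from 70.1 CPM in young injured 1 to 356 CPM in young sham 3, and Ldb3, a PDZ-LIM protein of the Z-disc, from 215 CPM in young injured 2 to 785 CPM in young sham 3. Csrp3, muscle LIM protein, ranged from 58.9 CPM in aging sham 2 to 506 CPM in young injured 3. Pdlim5, another PDZ-LIM protein, had the narrowest range within young injured valves, at 2.26-fold, and ranged from 212 CPM in young injured 1 to 480.0 CPM in young injured 3. Mypn, myopalladin, ranged from 17.4 CPM in young injured 1 to 147 CPM in young sham 3, and Synpo2l from 32.9 CPM in aging sham 2 to 485 CPM in young injured 3. Smpx, a small muscle protein, ranged from 16.1 CPM in young injured 2 to 93.2 CPM in young sham 3. Flnc, the muscle filamin that crosslinks actin, ranged from 259 CPM in young injured 2 to 772 CPM in young injured 3, and Fhl2, a LIM protein, from 70.8 CPM in young injured 1 to 585 CPM in young injured 3.

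Nrap, Xirp1 and Xirp2 encode actin-binding proteins of the intercalated disc and of myofibril assembly. Xirp2 stood at 155 and 87.0 CPM in aging injured valves, 416, 68.7 and 169 CPM in aging sham valves, 64.3, 86.9 and 865 CPM in young injured valves, and 486, 409 and 611 CPM in young sham valves. Aging sham 1 and young injured 3 were high within their groups, and aging sham 2 and young injured 1 were the lowest libraries. Xirp1 stood at 111 and 121 in aging injured, 158, 104 and 116 in aging sham, 102, 194 and 455 in young injured valves and 393, 243 and 519 in young sham valves, in CPM, with the aging sham range wholly below the young sham range. Nrap ranged from 75.3 CPM in young injured 1 to 762 CPM in young sham 3.

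Ankrd1 and Trim63 are known to respond to load and to atrophy. Ankrd1, an ankyrin repeat protein of the titin spring region, stood at 673 and 254 CPM in aging injured valves, 1615, 235 and 639.7 CPM in aging sham valves, 657, 608 and 2694 CPM in young injured valves, and 1510.0, 1475 and 2257 CPM in young sham valves. Both aging injured values were below young sham values, but aging sham 2 was lower than either, so the aging groups overlapped. Trim63, the ubiquitin ligase MuRF1 that marks sarcomere proteins for breakdown, stood at 28.5 and 20.0 in aging injured, 33.7, 15.0 and 21.4 in aging sham, 14.2, 17.4 and 65.1 in young injured valves and 46.0, 61.4 and 76.9 in young sham valves, in CPM. All aging sham values of Trim63 lay below all young sham values, and young injured 1 and 2 lay with the aging sham valves.

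Of the calcium handling genes, Ryr2, the calcium release channel of the cardiac sarcoplasmic reticulum, stood at 295 and 323 CPM in aging injured valves, 456, 175 and 196 CPM in aging sham valves, 131, 135 and 643 CPM in young injured valves, and 323, 513 and 659.9 CPM in young sham valves. Young injured 1 and 2 were the lowest libraries, while young injured 3 stood with the highest young sham valve. Atp2a2, the calcium pump SERCA2, stood at 2538 and 2577 in aging injured, 3864, 1666 and 2004 in aging sham, 1600.1, 1471 and 5483 in young injured valves and 2711, 4681 and 6214 in young sham valves, in CPM, and is also made outside muscle. Pln, phospholamban, the inhibitor of the pump, stood at 890.4 and 618 CPM in aging injured valves, 831, 493 and 537 CPM in aging sham valves, 236, 577 and 1762 CPM in young injured valves, and 1238, 1779 and 2085 CPM in young sham valves. Its aging sham range was wholly below its young sham range. The ratio of young injured 1 to young injured 2 was 0.409 for Pln, although their summed levels were nearly equal.

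Casq2, the cardiac calsequestrin that stores calcium, stood at 194 and 159 CPM in aging injured valves, 366, 94.7 and 121 CPM in aging sham valves, 173, 103 and 665 CPM in young injured valves, and 258, 354 and 531 CPM in young sham valves. Young injured 3 was highest and aging sham 2 lowest, and the groups overlapped. Hrc, a calcium-binding protein of the reticulum, stood at 171 and 103 in aging injured, 188, 98.0 and 109 in aging sham, 45.9, 91.2 and 279.7 in young injured valves and 194, 341 and 374 in young sham valves, in CPM. The highest aging sham value of Hrc came close to the lowest young sham value without reaching it, and young injured 1 was the lowest library.

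The 3 genes of energy transfer and oxygen storage were all at their lowest in young injured 1. Mb, myoglobin, stood at 1246 and 1107 CPM in aging injured valves, 1589.8, 621 and 883 CPM in aging sham valves, 277, 784 and 2541 CPM in young injured valves, and 1871, 2393 and 2882 CPM in young sham valves. Its aging sham values lay wholly below its young sham values, and the ratio of young injured 1 to young injured 2 was 0.354. Ckm, the muscle creatine kinase, stood at 154 and 133 in aging injured, 175, 89.3 and 84.7 in aging sham, 71.1, 103 and 339 in young injured valves and 217, 359 and 424 in young sham valves, in CPM. The aging sham range of Ckm also lay below its young sham range. Ckmt2, the mitochondrial creatine kinase of sarcomeric muscle, ranged from 82.2 CPM in young injured 1 to 440.3 CPM in young sham 3.

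For injury in aging valves the muscle genes lay on both sides of 0. Of the 39 genes, 20 had a positive and 19 a negative log2 fold change of aging injured over aging sham valves, with a median of 0.00, against -0.01 over all genes tested. None of the 39 was called by edgeR's quasi-likelihood test with Benjamini-Hochberg adjustment, against 0% of all genes. By that test 0 had an unadjusted p under 0.05, against 1710 of the 19366 genes tested. DESeq2 and limma-voom also called 0. The 2 groups overlapped for all 39 genes, where 27.8% of all genes did not overlap. The smallest p belonged to Nrap (log2 fold change -0.92 ± 0.78 SE, adjusted p = 0.813 by edgeR), Ankrd1 (-0.84 ± 0.80, adjusted p = 0.844) and Xirp2 (-0.85 ± 0.99, adjusted p = 0.884). Without aging sham 1 the Ankrd1 value was 0.084 and the Xirp2 value 0.023, and without aging injured 1 they were -1.72 and -1.34. Mean Nrap was 116 ± 21.6 CPM in aging injured and 219.9 ± 134 CPM in aging sham valves (SD, n = 2 and n = 3). Mesothelial markers were negative for 8 of 8 genes in this comparison (median -1.03). Adipocyte markers were positive for 8 of 8 tested (median 1.90). The groups did not overlap for 7 mesothelial and 4 adipocyte genes, against the same 27.8%, and edgeR called 0 of either list. The part of these cells in the muscle gene values was not tested.

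Injury in young valves gave a lower mean for all 39 genes, and none of the differences passed the thresholds. The median log2 fold change of young injured over young sham valves was -0.64, against 0.01 over all genes tested, and the values lay between -1.13 (Hrc) and -0.03 (Actc1). None of the 39 was called by edgeR's quasi-likelihood test, against 0.418% of all genes. By that test 1 had an unadjusted p under 0.05, against 1780 of the 19366 genes tested. DESeq2 and limma-voom called 0. For all 39 genes the groups overlapped, where 14.6% of all genes did not overlap. Valve interstitial and fibroblast markers were positive for 9 of 12 genes in this comparison, with a median of 0.49. Of these markers edgeR called 2 higher (smallest adjusted p = 0.00656), against 78 of 19366 genes. Macrophage markers were positive for 8 of 8 genes (median 0.39) and smooth muscle markers negative for 10 of 10 (median -0.33), with 0 called. Mesothelial markers were positive for 7 of 8 genes (median 0.71) and adipocyte markers for 7 of 8 tested (median 0.70), with 0 called. Endothelial markers were positive for 4 and negative for 8 (median -0.20), with 0 called. The part of these cells in the muscle gene values was not tested.

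By role, median log2 fold changes in young valves were -0.96 for energy and oxygen genes, -0.81 for thick filament genes, -0.72 for calcium handling genes, -0.67 for stress genes, -0.60 for thin filament genes and -0.57 for Z-disc genes. Tcap had the smallest p, with a log2 fold change of -0.72 ± 0.30 (SE) and an adjusted p of 0.491 by edgeR. Its mean was 310.1 ± 132 CPM in young injured and 509 ± 121 CPM in young sham valves (SD, n = 3 each). Hrc followed at -1.13 ± 0.55 with an edgeR adjusted p of 0.574. Ckm followed at -0.96 ± 0.51 with an edgeR adjusted p of 0.617.

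The size of the difference in this comparison depended most on young injured 3, which made the difference smaller. Without young injured 3, 28 of the 39 genes were lower and past both thresholds by edgeR, against 1.61% of all genes called lower. The median was then -1.60. Young injured 3 was the highest of its group for all 39 of these same genes, so leaving it out lowers each young injured mean. Only young injured 1 and 2 are then left. The genes largely rose and fell together between libraries, so the 28 calls are not separate results. The genes past the thresholds without young injured 3 include Myom1 at -1.28 ± 0.21 (adjusted p = 0.0366 by edgeR), Trim63 at -1.96 ± 0.35 (adjusted p = 0.0390 by edgeR) and Ckm at -1.94 ± 0.37 (adjusted p = 0.0430 by edgeR). Pln and Hrc were at -2.06 ± 0.40 and -2.14 ± 0.42 in that setting. The 11 genes still not called were Acta1, Nebl, Csrp3, Synpo2l, Cryab, Flnc, Actc1, Casq2, Pdlim5, Smpx and Ankrd1. The mitochondrial share and the cardiomyocyte markers of young injured 3 stood with the young sham libraries too. With all libraries and the cardiomyocyte marker score as a covariate, the median for injury in young valves was -0.28, with 9 genes positive and 30 negative and the smallest edgeR adjusted p at 0.601. The part of the mitochondrial share was not tested.

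**Figure D4:**
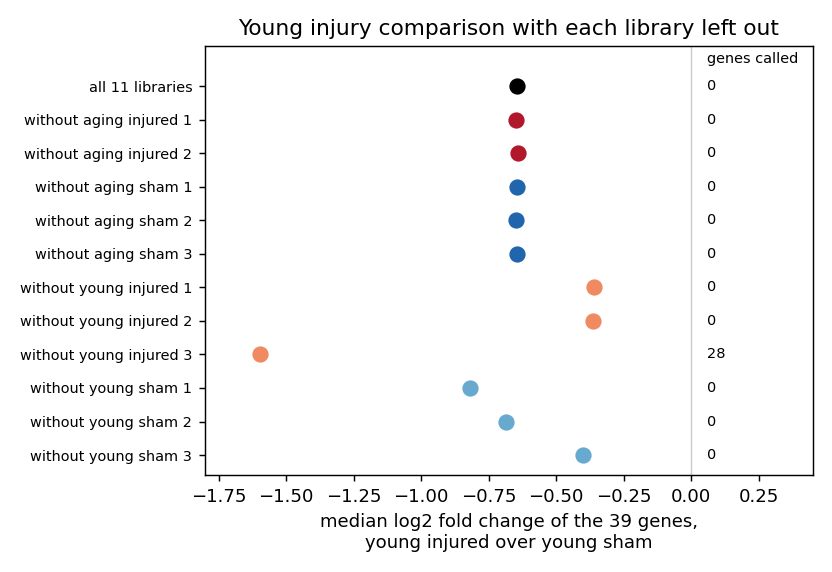
Median log2 fold change of the 39 genes for young injured over young sham valves, with all 11 libraries and after leaving out each library in turn, and at the right the number of the 39 genes called. The median is -0.64 with all libraries and -1.60 without young injured 3, the only setting shown in which genes were called, with 28.

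Age in injured valves gave mostly negative values. Of the 39 genes, 2 were positive and 37 negative for aging injured over young injured valves, with a median of -0.41 against -0.04 over all genes. None was called by edgeR's quasi-likelihood test, against 0.062% of all genes. By that test 0 had an unadjusted p under 0.05, against 2425 of the 19366 genes tested. DESeq2 and limma-voom called 0. All 39 genes overlapped, where 24.4% of all genes did not, and without young injured 3 the median was 0.58. The smallest p belonged to Xirp1 (-1.11 ± 0.51 SE, adjusted p = 0.405 by edgeR), Synpo2l (-1.77 ± 0.92, adjusted p = 0.461) and Nrap (-1.49 ± 0.80, adjusted p = 0.478). Mean Xirp1 was 116 ± 6.60 CPM in aging injured and 250.4 ± 183 CPM in young injured valves (SD, n = 2 and n = 3).

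Age in sham valves gave the largest median difference of the 4 group comparisons. All 39 genes had a negative log2 fold change of aging sham over young sham valves, the median was -1.18 against 0.02 over all genes, and 24 genes were below -1. None of the 39 was called by edgeR's quasi-likelihood test, against 0.0258% of all genes. By that test 13 had an unadjusted p under 0.05, against 1779 of the 19366 genes tested. DESeq2 called 2 of the 39 lower, Xirp1 at -1.63 (adjusted p = 0.0212) and Lmod2 at -1.64 (adjusted p = 0.0329), against 0.465% of all genes called lower by DESeq2. Limma-voom called 0. For 17 of the 39 genes every aging sham value lay below every young sham value, against 9.10% of all genes. The genes largely rose and fell together between libraries, and aging sham 1 was the highest aging sham library for all 39. The 17 genes, and the 13 above, are therefore not separate results.

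Markers of other cell types are given for the same comparison. Mesothelial markers had positive log2 fold changes for 8 of 8 genes, with a median log2 fold change of 1.83. For all 8 the groups did not overlap, against 11.8% of all genes with aging sham wholly above. By edgeR 0 were called, with a smallest adjusted p of 0.217. All 8 had an unadjusted edgeR p under 0.05, against 1779 of the 19366 genes tested. Smooth muscle markers were positive for 10 of 10 genes, with a median of 0.65, 5 not overlapping and 0 called. Macrophage markers were positive for 8 of 8 genes, with a median of 0.41 and 0 called, and valve interstitial and fibroblast markers for 3 of 12, with a median of -0.28 and 0 called. The part of these cells in the muscle gene result was not tested.

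The 17 muscle genes with no overlap came from every role, with 4 thin filament, 3 thick filament and M-band, 4 Z-disc, 1 stress, 2 calcium handling and 3 energy and oxygen genes. They were Xirp1, Lmod2, Myom2, Ckm, Tnnt2, Trim63, Mybpc3, Pln, Myoz2, Ckmt2, Hrc, Nrap, Tnnc1, Actn2, Mb, Tpm1 and Myom1. As the genes largely rose and fell together, the roles are not separate results either. By edgeR, Xirp1 differed by -1.61 ± 0.45 (log2, SE; adjusted p = 0.368), with 126 ± 28.1 CPM in aging sham and 385 ± 139 CPM in young sham valves (SD, n = 3 each). Lmod2 differed by -1.62 ± 0.48 (edgeR adjusted p = 0.390), at 110.2 ± 44.4 CPM in aging sham and 339 ± 26.9 CPM in young sham valves. Myom2 differed by -1.96 ± 0.61 (edgeR adjusted p = 0.416), at 218 ± 157 CPM in aging sham and 845 ± 290.4 CPM in young sham valves. The smallest difference was that of Pdlim5, at -0.06.

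**Figure D5:**
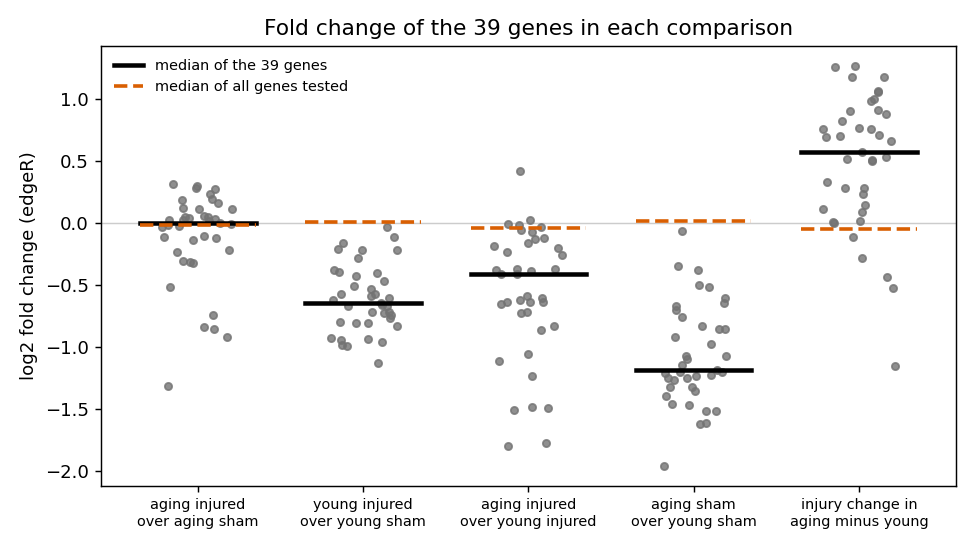
Log2 fold change by edgeR of each of the 39 genes (points) in the 4 group comparisons and the interaction, with a black line at the median of the 39 genes and a dashed line at the median of all genes tested. All points lie below 0 for injury in young valves and for age in sham valves, and they lie on both sides of 0 for injury in aging valves.

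When the cardiomyocyte marker score of each library was held constant as a covariate, the median for age in sham valves was -0.12, with 17 genes positive and 22 negative. The values ran from -0.94 (Xirp1) to 0.83 (Actc1), with a smallest edgeR adjusted p of 0.709. The score comes from genes of the same cell type, so it cannot tell fewer cardiomyocytes from less RNA per cardiomyocyte. That score, the mean log2 level of the 20 markers relative to their average over the libraries, was -0.60 and 0.00 in aging injured valves, 0.58, -1.48 and -0.72 in aging sham valves, -0.59, -0.77 and 1.20 in young injured valves, and 0.16, 0.91 and 1.31 in young sham valves. The age and injury comparisons share libraries, so their values stand side by side and are not separate evidence.

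The injury by age interaction, the injury change in aging valves minus that in young valves, was positive for 34 genes and negative for 5, with a median of 0.57 against -0.05 over all genes. None was called by edgeR's quasi-likelihood test, against 0% of all genes. By that test 0 had an unadjusted p under 0.05, against 1523 of the 19366 genes tested. DESeq2 and limma-voom called 0. Tcap (0.76 ± 0.45 SE, adjusted p = 0.731 by edgeR), Ckm (1.26 ± 0.76, adjusted p = 0.736) and Pln (1.27 ± 0.82, adjusted p = 0.754) had the smallest p. Without young injured 3 the median was 1.58.

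Other sarcomere genes were taken as a list of 32, and edgeR called 0 in any comparison, with 9 at an unadjusted p under 0.05 for age in sham valves and 1 to 3 in each other comparison. Over all 19366 genes, 1779 were under that p for age in sham valves and 1523 to 2425 in the other comparisons. DESeq2 called only Myoz1, for injury in aging valves (adjusted p = 0.0904) and for age in injured valves (adjusted p = 0.0568), and limma-voom called 0. The share of all genes called by DESeq2 in these comparisons is not given, so the Myoz1 calls are not set against a background. Without young injured 3, edgeR called 13 of the 32 for injury in young valves, all lower, against 1.61% of all genes called lower. In young valves 2 were positive and 30 negative after injury (median -0.61), in aging valves 15 and 17 (median -0.05), for age in sham valves 5 and 27 (median -1.18), and for age in injured valves 4 and 28 (median -0.44). Pdlim3, a PDZ-LIM protein, had the smallest p for injury in young valves, at 179 ± 19.2 CPM in young injured and 259 ± 43.2 CPM in young sham valves (log2 -0.53 ± 0.15 SE, edgeR adjusted p = 0.207). Mylk3, the cardiac myosin light chain kinase, had it for age in sham valves, at 98.1 ± 53.7 CPM in aging sham and 297 ± 101 CPM in young sham valves (log2 -1.60 ± 0.53 SE, edgeR adjusted p = 0.440). Myoz1, a Z-disc protein of fast muscle, stood at 0.226 ± 0.0311 CPM in aging injured and 1.42 ± 0.0928 CPM in aging sham valves (log2 -2.63 ± 0.88 SE, edgeR adjusted p = 0.419), a level of few counts. For the second smallest p, Trim54 was at -1.05 ± 0.52 for injury in young valves, Pdlim3 at -0.32 ± 0.17 for injury in aging valves, Unc45b at -1.16 ± 0.42 for age in sham valves and Myom3 at -1.17 ± 0.43 for age in injured valves (log2, SE), where Myoz1 had the smallest p, at -2.63 ± 0.88. For the interaction, Myoz1 was at -3.32 ± 1.10 and Mylk3 at 1.28 ± 0.78.

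Other calcium handling genes were taken as a list of 25, and edgeR, DESeq2 and limma-voom called 0 in any comparison, with 0 to 6 at an unadjusted p under 0.05 in edgeR. Over all 19366 genes the count under that p was 1523 to 2425 by comparison. Without young injured 3, edgeR called 3 of the 25 for injury in young valves, all lower, against the same 1.61%. Of these, 9 were positive and 16 negative for injury in young valves (median -0.03) and 12 positive and 13 negative for age in sham valves (median -0.09). Calr, calreticulin, a calcium-binding chaperone of the endoplasmic reticulum in all cells, stood at 668 ± 100.2 CPM in young injured and 450.0 ± 48.0 CPM in young sham valves (log2 0.57 ± 0.15 SE, edgeR adjusted p = 0.180). Camk2b, a calcium and calmodulin dependent kinase, stood at 24.4 ± 2.06 CPM in aging sham and 12.2 ± 2.17 CPM in young sham valves (log2 1.00 ± 0.20 SE, edgeR adjusted p = 0.216). All aging sham values of Camk2b lay above all young sham values, and Calr was at 0.59 ± 0.15 in the same comparison. Tmem65 was at -0.39 ± 0.13 for injury in young valves, Fkbp1b at -0.47 ± 0.26 and Calm2 at -0.30 ± 0.17 for injury in aging valves. For age in injured valves Camk2b was at 0.71 ± 0.21 and Jph2, a junctophilin, at 0.57 ± 0.24, and for the interaction Calm2 was at -0.53 ± 0.23 and Jph1 at 1.00 ± 0.44 (log2, SE).

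A list of 15 muscle stress and growth response genes also gave 0 calls by edgeR, with 1 to 7 at an unadjusted p under 0.05 in each comparison. Over all 19366 genes the count under that p was 1523 to 2425 by comparison. Of the genes named here DESeq2 called Hspb1 for injury in young valves (adjusted p = 0.0513), Atf3 and Hspa1a for age in sham valves (adjusted p = 0.0148 and 0.0103), and Fos and Ankrd2 for age in injured valves (adjusted p = 0.00320 and 0.0843). For age in sham valves DESeq2 called 0.465% of all genes lower. The share of all genes called by DESeq2 is not given for the other comparisons, so those calls are not set against a background. Without young sham 3, edgeR called Atf3 for age in sham valves, at -3.34. Young sham 3 was the young sham library with the least Atf3, so leaving it out raises the young sham mean. That call is therefore not separate support, and it is not set against a background. The smallest p for injury in young valves was that of Hspb1, a small heat shock protein, at 214 ± 79.4 CPM in young injured and 457 ± 228 CPM in young sham valves (log2 -1.10 ± 0.35 SE, edgeR adjusted p = 0.287). For age in sham valves it was that of Atf3, an immediate early factor, at 16.1 ± 4.41 CPM in aging sham and 115 ± 88.8 CPM in young sham valves (log2 -2.84 ± 0.65 SE, edgeR adjusted p = 0.238). Young sham 1 had 194 CPM and young sham 3 had 19.0 CPM of Atf3, so the groups overlapped. Hspa1a, an inducible heat shock protein, was at -1.91 ± 0.77 for injury in young valves and at -3.54 ± 0.82 for age in sham valves (log2, SE). Hmox1 was at 0.73 ± 0.37 for injury in aging valves, Fos at -2.29 ± 0.60 for age in injured valves and Bag3 at 0.79 ± 0.39 for the interaction. Ankrd2 had 0 counts in both aging injured libraries and also in young sham 1 and young sham 3. It had at most 1.23 CPM elsewhere, so no fold is given.

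Some members tracked the mean of the 20 other cardiomyocyte markers closely and others did not. The markers themselves ranged unequally, with Nppa at 3.27 to 1624 CPM, Myl7 at 13.9 to 955 CPM and Tbx20 at 348 to 551 CPM. Their mean is therefore not a measure of muscle content alone. After the log2 mean of those markers was taken off, the standard deviation over the 11 libraries was 0.25 for Actn2, 0.25 for Tnni3 and 0.30 for Casq2, whose own log2 CPM varied by 0.92, 0.81 and 0.95. It was 1.58 for Acta1, 0.74 for Xirp2 and 0.71 for Pdlim5, against 2.22, 1.38 and 0.36 for their own log2 CPM. Pdlim5 thus varied less by itself than after the markers were taken off. Young injured 1 and young injured 2 had nearly equal summed levels and still differed by more than 1.5-fold in 13 of the 39 genes. Actc1, Casq2 and Smpx were higher in young injured 1, at ratios of 1.66, 1.69 and 2.13, and Acta1, Mb and Pln were lower, at 0.209, 0.354 and 0.409.

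Chamber markers crossed this group. Myl7, the atrial myosin light chain, stood at 42.3 and 211 CPM in aging injured valves, 533, 13.9 and 90.7 CPM in aging sham valves, 506, 65.2 and 536 CPM in young injured valves, and 104, 633 and 955 CPM in young sham valves. Myl2, the ventricular one, stood at 887 and 389 in aging injured, 659, 436 and 464 in aging sham, 53.1, 480.2 and 1631 in young injured valves and 1051, 1271 and 1583 in young sham valves, in CPM. Young injured 1 had the lowest Myl2 of the 11 libraries together with 506 CPM of Myl7, whereas young injured 2 had 65.2 CPM of Myl7.

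The genes outside the lists whose levels most resembled the summed level of the 39 were chosen by Spearman's rho over the 11 libraries among 10127 genes with a mean of at least 10 CPM. They were Mfn1 at 1, Idh3a and Sdhd at 0.991, and Slc25a4 and Apobec2 at 0.982, with Pearson's r of log2 CPM of 0.990, 0.990, 0.982, 0.992 and 0.983. Mfn1, Idh3a, Sdhd and Slc25a4 encode mitochondrial proteins. The libraries share tissue and depth, and the genes were picked for this likeness, so the values are a description.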

How the data were processed

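RNA of 11 valves, 1 mouse each, was read in pairs of 150 nt, per the labels' protocols. Per the submitters' processing notes, TopHat2 2.1.0 and the mm10 build were used; how reads were counted, whether by strand, and with which annotation is not given in the sources used here. Values of genes that overlap or have near-identical copies are therefore uncertain. The authors deposited raw counts for 46983 genes and RPKM values for 13526 genes, and 1 library column of the counts that matched no sample label was not used. RPKM served only to compare levels between genes.

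Counts were fitted with edgeR 4.0.16 (R 4.3.3), glmQLFit and glmQLFTest, with filterByExpr at a minimum count of 10, TMM scaling and 1 mean per group over all 11 libraries, which left 19366 genes and a common biological coefficient of variation of 0.377. Adjusted p is Benjamini-Hochberg over all genes tested, and the thresholds (adjusted p of 0.1, fold of 2) are those of the series' design text. SE is the absolute log2 fold change over the square root of F. The scripts were tested on simulated data. DESeq2 1.42.0, limma-voom (limma 3.58.1) and other settings were tried as alternatives. P-values measure the spread between mice.

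The members and gene lists were chosen with earlier results of these data known. Named were a set of 18 members fixed for the text, the 3 members of smallest p in each comparison, the 3 of smallest and of largest spread relative to the markers, the 2 list genes of smallest p in each comparison, and the 5 genes most like the summed level. Of the list genes, 2 were not found by symbol.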

Additional observations from a re-analysis of the deposited data

How the results depend on the processing

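With each library left out in turn, the count of the 39 genes called for injury in young valves ranged from 0 to 28 and its median log2 fold change from -1.60 to -0.36; the 28 and the -1.60 came without young injured 3. The median for age in injured valves ranged from -0.82 to 0.58 and that for the interaction from 0.21 to 1.58, the highest again without young injured 3. For age in sham valves it ranged from -1.67 to -0.89, and for injury in aging valves from -0.24 to 0.52. The medians for injury in young valves were -0.36 without young injured 1 or 2 and -0.40 without young sham 3. For age in injured valves the median was -0.82 without young injured 1 and -0.80 without young injured 2. The interaction median was 0.21 without young injured 1, 0.35 without young injured 2, 0.32 without young sham 3, 0.39 without aging sham 2 and 1.08 without aging sham 1. For injury in aging valves it was 0.52 without aging sham 1 and -0.24 without aging sham 2. DESeq2 called 2 members for age in sham valves. With the cardiomyocyte marker score as a covariate that median was -0.12, and it was -0.28 for injury in young valves, 0.09 for age in injured valves and 0.14 for the interaction. With limma-voom the median was -0.96 for injury in young valves, -0.08 for age in injured valves and 0.98 for the interaction. Without aging sham 1, the values of Ankrd1 and Xirp2 for injury in aging valves reversed to 0.084 and 0.023, and they were lowest without aging injured 1, at -1.72 and -1.34; the cause was not tested. The labels do not say whether a replicate number is shared between groups. Deviations of same-numbered libraries from their group means correlated at -0.13 to 0.25 over 15 pairs, against -0.23 to 0.26 over 30 other pairs. In groups of 2 or 3 these deviations sum to 0, so the correlations cannot decide whether same-numbered libraries belong together. With the replicate number as a block, 0 members were called in each of the 5 comparisons, and the medians were -0.85 for injury in young, 0.20 for injury in aging, -1.12 for age in sham and 0.00 for age in injured valves. The fit of only the groups compared was not run for the interaction. Groups of 2 or 3 mice limit every comparison.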
